A study of Mus musculus with 65 samples.

Results

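A mouse embryonic stem cell line in which the gene for histone H3.3A had been knocked out was compared between day 6 of retinoic acid differentiation and day 0, by RNA sequencing of polyadenylated RNA. The comparison rests on 4 of the 65 samples of the series, the libraries labelled H33AKO, with 2 at day 6 and 2 at day 0. The day 6 samples were embryoid bodies, formed from stem cells without leukemia inhibitory factor (LIF), in the presence of 10 µM all-trans retinoic acid and with constant rotation. The day 0 samples were the same knockout stem cells kept on gelatin in serum medium with LIF. The knockout change was set beside that of wild-type cells of the same sequencing date (2 day 6 libraries and 1 day 0 library, treated in the same way) and beside that of a line labelled H3.3K27A (2 libraries at each day), in which lysine 27 of H3.3 is replaced by alanine. The sources used here do not say whether a line was 1 clone, nor whether duplicates came from separate cultures. The p-values therefore measure only the spread between these samples, which may be technical.

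Histone H3.3 is a variant that can be placed into chromatin outside DNA replication, and its 2 genes, H3f3a and H3f3b, encode the same protein. Trimethylation of lysine 27 on histone H3, placed by Polycomb repressive complex 2, marks the starts of many developmental genes that are silent or barely active in stem cells. Retinoic acid binds nuclear receptors that sit on short DNA elements near genes such as those of the HOX clusters, and in embryoid bodies it is widely used to drive cells away from pluripotency towards neural and endodermal fates.

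Values below are CPM (counts per M counts of the library on genes, after TMM scaling, where M stands for mega), with replicate 1 before replicate 2 of each day, and changes are log2 ratios of day 6 over day 0. The 4 knockout libraries held between 18.14 M and 20.93 M counts on genes, within the range of 14.27 M to 22.03 M of the 11 libraries of that date. H3f3a, the targeted gene, had 20.9 and 23.1 CPM at day 6 and 22.9 and 21.1 CPM at day 0 in the knockout. Wild-type cells had 119 and 114 CPM at day 6 and 129 CPM at day 0. The knockout libraries were thus all below the wild-type ones, with reads remaining on the gene. In the H3.3K27A line H3f3a stood at 20.4 to 24.2 CPM, so the libraries of both lines had a like level. The comparison with H3.3K27A is therefore not one with a line at the wild-type level of H3f3a. The labels do not say which H3.3 gene carries the change to alanine. H3f3b, the other H3.3 gene, had 1134 and 1051 CPM at day 6 and 872 and 914 CPM at day 0 in the knockout. Its change was 0.29 ± 0.07 (SE), with a Benjamini-Hochberg adjusted p of 0.00281 in edgeR's quasi-likelihood test, and the adjusted p was 0.0596 when only the knockout libraries entered the fit. The change of H3f3a itself was 0.00 ± 0.09 (adjusted p = 0.964).

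The 2 day 6 libraries of the knockout differed from each other more than the duplicates of the other groups did. The median absolute difference between them was 0.281 on the log2 scale and 8.67% of genes differed by more than 1 log2 unit, against 0.126 and 2.95% for the knockout at day 0. The day 6 duplicates of wild type differed by a median of 0.107 and those of H3.3K27A by 0.087. The share of reads on no annotated gene was 11.3% in day 6 replicate 1 and 16.8% in day 6 replicate 2, the lowest and the highest value of the 11 libraries. Gene groups moved together between these 2 libraries. Of the 31 genes of mature neurons that were tested, 2 were higher in replicate 1, and the median difference of replicate 1 minus replicate 2 was -1.39. The 29 primitive and visceral endoderm genes lay the other way, with 23 higher in replicate 1 and a median of 0.43. At day 0 the same medians ran from -0.14 to 0.17 over all the lists used. The part that this difference plays in a day 6 result was not tested. The counts of calls, the counts and medians of the lists, the shares of genes with a peak and the changes of named genes were recomputed without each of the 2 libraries. Bulk RNA cannot tell fewer cells of a type from less RNA per cell.

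**Figure D1:**
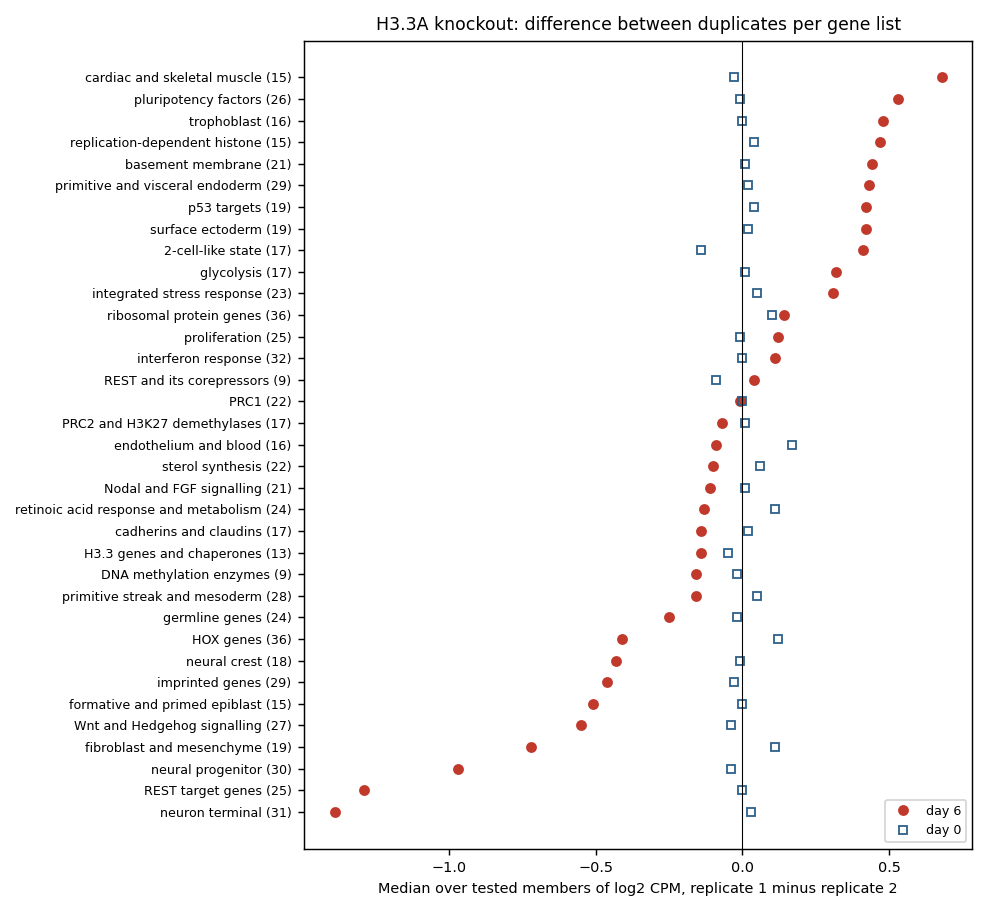
Median log2 difference of replicate 1 minus replicate 2 over the tested genes of each list (x axis, log2 units) in the H3.3A knockout, for the day 6 pair and the day 0 pair. The day 6 medians run from -1.39 for mature neuron genes to 0.68 for muscle genes, while the day 0 medians lie between -0.14 and 0.17.

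Marker genes placed the libraries with their labels. The summed level of 5 stem cell markers was 185 and 97.2 CPM at day 6, against 4200 and 4000 CPM at day 0. The sum of 5 primitive endoderm markers was 1780 and 990 CPM at day 6, against 129 and 134 CPM at day 0. That of 3 visceral endoderm markers was 69.9 and 57.0 CPM at day 6, against 0.837 and 0.442 CPM at day 0, where 2 of the 3 had no count. The sum of 4 neural markers, 102 and 283 CPM at day 6, lay on both sides of the 109 and 110 CPM of day 0. Tubb3 made up most of the day 0 sum, with 87.7 and 85.2 CPM, against 42.1 and 116 CPM at day 6. Pax6 (25 and 58 CPM at day 6, 5.93 and 7.02 CPM at day 0) was higher in both day 6 libraries. So was Dcx, with 20.7 and 78.2 CPM at day 6 and no count at day 0. For Sox1 the days overlapped, as for Tubb3. The sum of 5 mesoderm markers was 285 and 251 CPM at day 6, against 20.3 and 18.2 CPM at day 0. Pdgfra, a growth factor receptor that primitive endoderm also expresses, made up most of it, with 273 and 234 CPM at day 6 and 17.5 and 15 CPM at day 0. Foxc1 was also higher, with 9.9 and 14.1 CPM at day 6 and 0.773 and 1.33 CPM at day 0. Hand1 had 1.94 and 2.84 CPM at day 6 and 1.03 and 0.884 CPM at day 0. Mesp1 had 0.0524 and 0 CPM at day 6 and 0.515 and 0.276 CPM at day 0. T (Brachyury), the marker among them that defines the primitive streak, was at 0 in both day 6 libraries. It had 0.515 and 0.718 CPM at day 0, so that it was at least 8.67-fold lower at day 6. The blood cell marker Ptprc was at 0 at day 6 and at 0.0644 and 0.0553 CPM at day 0. A list of 4 fibroblast markers, read as markers of feeder cells, summed to 65.0 and 127 CPM at day 6 and to 499 and 379 CPM at day 0. Its members Col1a1 and Col1a2 had 231 and 166 CPM, and 254 and 198 CPM, at day 0. Thy1 had 13.6 and 15.4 CPM at day 0. Lum went the other way, with 0.576 and 1.37 CPM at day 6 and 0.258 and 0 CPM at day 0.

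Of 14760 genes tested, 6015 (40.8%) rose and 5377 (36.4%) fell between day 0 and day 6 in the knockout at an adjusted p below 0.05. With a log2 change of at least 1 also required, 4052 genes (27.5%) rose and 3078 (20.9%) fell. The median change of all tested genes was 0.11. At the same adjusted p, 5087 rose and 4627 fell with only the knockout libraries in the fit. In both fits that left out 1 of the day 6 libraries, 5278 of the genes that rose and 4985 of those that fell were called in the same direction. With 2 libraries a day, an exact permutation test of a single gene could not go below p = 0.333, so all calls rest on the model fitted across genes.

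Of the 12 genes with the largest fitted rises, 10 had no count at day 0, so that only a lower bound can be given for them. Ugt2b34, an enzyme that conjugates glucuronic acid to steroids and drugs, had 149 and 98.2 CPM at day 6 and no count at day 0, at least 1360-fold higher. The secreted gastrokine Gkn2, with 73.7 and 55.0 CPM at day 6 and no count at day 0, was at least 713-fold higher. Dcx, the microtubule protein of migrating neurons, had 20.7 and 78.2 CPM at day 6 and no count at day 0, at least 581-fold higher, with replicate 2 well above replicate 1. Prdm8 and Iigp1, an interferon-induced GTPase, showed the same order of the 2 libraries (12 and 45.2 CPM, and 13.8 and 38.5 CPM, both without a count at day 0). Ttr, the thyroxine carrier of visceral endoderm and liver, had 28.6 and 19.02 CPM at day 6 and was at least 262-fold higher. Afp, the fetal albumin of the same tissues, had 12.1 and 12.3 CPM at day 6 and was at least 137-fold higher. The other genes named by size were Cxcl15, Ugt1a7c, Usp18, Adh1 and S100g. S100g, a calcium-binding protein, had 248 and 245 CPM at day 6 against 3 counts in all at day 0, which is 2760 times as high (95% interval of the counts, 945 to 13400).

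The largest falls were of genes with little or no signal left at day 6. Vrtn and Nkx6-3, both transcription factors, had no count at day 6 and were at least 224-fold and 155-fold lower, with 17.0 and 15.4 CPM and with 11.9 and 10.5 CPM at day 0. Platr10, a non-coding transcript named for its association with pluripotency, had 3 counts in all at day 6 and 105 and 114 CPM at day 0, a ratio of day 0 over day 6 of 1530 (95% counting interval 522 to 7410). Fgf4, the growth factor that stem cells secrete, had 0.733 and 0.355 CPM at day 6 and 420 and 385 CPM at day 0, a change of -9.55 ± 0.31 (adjusted p = 8.28e-09). Nphs1 and Kirrel2, cell adhesion proteins of the kidney filter that stem cells also express, changed by -9.37 and -8.53. Fgf17, another growth factor, changed by -8.45. Krt42, Chrna9, Platr7, Myo1f and Gm7325 completed the named genes.

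Genes of the retinoic acid response rose by large factors. Retinoic acid receptors can bind as a pair to 2 copies of a short site in the same orientation. Cyp26a1 and Rarb are textbook direct targets with such elements near their starts, so the 150 bases before their starts are shown, from RefSeq annotation and the GRCm38.p6 (mm10) genome, with the match in capitals.

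Cyp26a1, chr19:37697658-37697807, plus strand: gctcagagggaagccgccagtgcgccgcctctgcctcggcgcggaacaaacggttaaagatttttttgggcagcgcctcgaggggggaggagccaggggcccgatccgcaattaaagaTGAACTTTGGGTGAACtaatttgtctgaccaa
Rarb, chr14:16575477-16575626, minus strand: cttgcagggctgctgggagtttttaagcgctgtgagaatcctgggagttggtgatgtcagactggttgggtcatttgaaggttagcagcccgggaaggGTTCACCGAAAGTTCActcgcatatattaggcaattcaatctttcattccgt

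The letters searched, on both strands, were GTTCA or GGTCA, then any 6 bases, then again GTTCA or GGTCA. The match lies 32 to 17 bases before the start of Cyp26a1, on the opposite strand, and 52 to 37 bases before that of Rarb. It was present in 81 of 32851 promoter windows of 300 bases (0.247%). Of the retinoic acid list 18 genes had a window, and these 2 held a match. None of the 21 HOX genes with a window did. Of the 22 tested genes with a match, 13 rose, 6 fell and 3 were not called in the knockout. Over all genes tested, 40.8% rose and 36.4% fell. A match of letters describes the sequence and does not show that a receptor binds there.

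Cyp26a1, which encodes an enzyme that breaks down retinoic acid, had 2384 and 1798 CPM at day 6 and 0.902 and 1.33 CPM at day 0. Its change was 10.85 ± 0.54 (adjusted p = 7.96e-08). Cyp26b1, a second such enzyme, had 1198 and 1329 CPM at day 6 and 1.09 and 0.829 CPM at day 0 (10.36 ± 0.41, adjusted p = 2.1e-08). Rarb, the receptor that retinoic acid induces, had 234 and 184 CPM at day 6 and 0.837 and 1.05 CPM at day 0 (7.77 ± 0.18, adjusted p = 1.87e-09). In all of these genes both day 6 libraries lay more than 100 CPM above both day 0 libraries. Of the 27 genes of the list 24 passed the filter on low counts and were tested, of which 17 rose and 5 fell, with a median change of 4.47 against 0.11 over all genes. The cellular uptake receptor Stra6 changed by 7.02 and the carriers Rbp4 and Crabp2 by 7.45 and 3.64. The synthesizing enzymes Aldh1a2 and Rdh10 changed by 3.54 and 3.66, and the germ cell gene Stra8 by 5.28. The receptors themselves divided. Rara and Rarg fell by 0.42 and by 2.72 on the log2 scale, and Rxrg fell by 3.55, while Rxra rose by 0.93. Rarg had 57.1 and 51.3 CPM at day 6 against 365 and 350 CPM at day 0. Aldh1a3 (0.62 ± 0.43, adjusted p = 0.208) and Crabp1 (0.33 ± 0.39, adjusted p = 0.457) were not called. Nr2f1, an orphan receptor of the developing brain, had 6.75 and 20 CPM at day 6 and 1 count in all at day 0, a ratio of 468 (95% counting interval 83.7 to 18500).

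The HOX genes, transcription factors that give position along the body axis, rose almost as a block. Of 39 genes 36 passed the filter on low counts and were tested, 33 rose and none fell, and the median change was 6.01, or 5.73 with genes without a count at day 0 taken at their lower bound. Without day 6 replicate 1, 1 of them was called as lower. Hoxb1 had 62.0 and 67.8 CPM at day 6 and 0.837 and 0.497 CPM at day 0 (6.62 ± 0.20). Hoxa5 had 315 and 270 CPM at day 6 and 1.35 and 0.939 CPM at day 0 (8.01 ± 0.18). The rise was not even along the clusters. Apart from Hoxa6, which had no count at day 0, the members of paralogue groups 1 to 9 changed by 3.33 (Hoxb7) to 8.01 (Hoxa5), and those of groups 10 to 13 by -0.87 (Hoxa11) to 4.10 (Hoxb13). Hoxa10 changed by 2.65, Hoxc13 by 1.60 and Hoxd13 by 0.73. Hoxd10 (0.34 ± 0.75), Hoxd11 (0.44 ± 0.65) and Hoxa11 (-0.87 ± 0.55) were not called, all of them below 1 CPM in every knockout library. Hoxb13 had 39.8 and 34.1 CPM at day 6 and 2.51 and 1.82 CPM at day 0 (4.10 ± 0.24). Hoxd3 had 8.69 CPM in day 6 replicate 1 and 24.3 CPM in replicate 2, and Hoxd4 had 9.85 and 33.9 CPM, so the libraries stood apart for both.

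**Figure D2:**
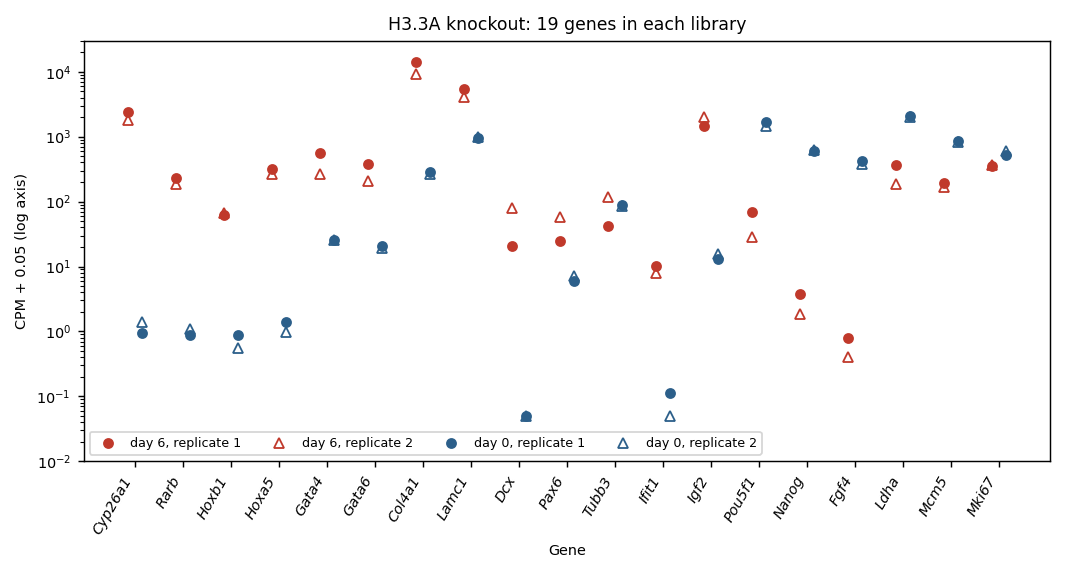
CPM plus 0.05 (y axis, log scale) of 19 genes in each of the 4 H3.3A knockout libraries, with day 6 left of day 0 for each gene and filled circles for replicate 1, open triangles for replicate 2. Cyp26a1, Rarb and the HOX genes lie far higher at day 6, Pou5f1, Nanog and Fgf4 far lower, and the day 6 pair lies apart for Dcx, Pax6 and Tubb3.

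Genes of the stem cell state fell without exception among those listed. All 26 tested pluripotency factors fell, with a median change of -4.09. Pou5f1 (Oct4), the core transcription factor of pluripotent cells, had 68.1 and 28.7 CPM at day 6 and 1670 and 1449 CPM at day 0 (-5.02 ± 0.41, adjusted p = 2.16e-06). Nanog, its partner, had 3.72 and 1.82 CPM at day 6 and 599 and 613 CPM at day 0 (-7.80 ± 0.24, adjusted p = 6.48e-09). Sox2, which neural progenitors also use, had 20.4 and 45.4 CPM at day 6 and 760 and 818 CPM at day 0 (-4.58 ± 0.30). Replicate 1 was the higher day 6 library for Pou5f1 and Nanog and the lower one for Sox2. Smaller falls were those of Tbx3 (-0.61), Klf5 (-1.53) and Klf4 (-1.58), and Klf4 remained at 286 and 152 CPM at day 6. Utf1 (-7.77) and Dppa3 (-6.70) fell to 4.14 CPM or less in each day 6 library.

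Of 15 genes of the formative and primed epiblast, the state that follows naive pluripotency, 3 rose and 12 fell (median -3.25). Otx2, a regulator of that state, had 0.0524 and 0.577 CPM at day 6 and 13.8 and 16.2 CPM at day 0 (-5.47 ± 0.41). Dnmt3l, the cofactor of de novo DNA methylation, had 24.1 and 7.09 CPM at day 6 and 775 and 661 CPM at day 0 (-5.54 ± 0.48). Fgf5, a classical marker of the primed epiblast, was among the 3 that rose, yet to only 1.57 and 2.22 CPM at day 6 against 0.451 and 0.111 CPM at day 0 (2.79 ± 0.47, adjusted p = 0.000381). The claudin Cldn6 rose by 1.82. Sox3 rose by 1.29, a call lost without day 0 replicate 2 (adjusted p = 0.0537).

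Nodal and FGF ligands act on the epiblast of the early embryo. Among 21 genes of Nodal and FGF signalling, Fgf5 included, 16 fell and 4 rose, with a median of -2.44. Nodal had 2.83 and 3.06 CPM at day 6 and 93.8 and 89.1 CPM at day 0 (-4.95 ± 0.12), and its inhibitors and targets Lefty1 and Lefty2 changed by -5.73 and -7.42. The feedback inhibitor of FGF signalling Spry4 had 1.26 and 1.77 CPM at day 6 and 204 and 221 CPM at day 0 (-7.11 ± 0.14). The FGF receptor gene Fgfr2 was among those that rose, with 2.98 and 4.17 CPM at day 6 and 0.387 and 0.608 CPM at day 0 (2.82 ± 0.36).

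Primitive and visceral endoderm genes, which mark the tissue that surrounds the early embryo, rose in 25 of 29 cases and fell in 3, with a median of 4.02. Gata4, a transcription factor that directs this fate, had 557 and 268 CPM at day 6 and 25.7 and 25.2 CPM at day 0 (4.02 ± 0.31, adjusted p = 1.4e-06). Gata6 had 379 and 207 CPM at day 6 and 20.9 and 19.6 CPM at day 0 (3.86 ± 0.26). Sox17 had 126 and 87.4 CPM at day 6 and 4.70 and 4.64 CPM at day 0 (4.51 ± 0.19). In all 3, both day 6 libraries were above day 0 and replicate 1 was the higher of the pair. The forkhead factors Foxa2 and Foxa1 changed by 5.56 and 5.46 and the nuclear receptor Hnf4a by 4.80. The apolipoprotein Apoa4, without a count at day 0, had 10.6 and 11.2 CPM at day 6 and was at least 122-fold higher. Sparc, a secreted matrix protein of parietal endoderm, had 12550 and 6966 CPM at day 6, against 383 and 360 CPM at day 0 (4.72 ± 0.29). The lipid carrier gene Apoe (-1.03), the cubilin partner Amn (-2.03) and the iron carrier Trf (-2.24) fell, and the endocytic receptor Lrp2 was not called (-0.24 ± 0.12, adjusted p = 0.106).

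Genes of the basement membrane, the matrix sheet that endoderm and other epithelia lay down, rose in nearly all cases. Of 21 genes tested 19 rose and 2 fell, with a median of 2.21 (1.93 with the gene lacking day 0 counts at its bound). Col4a1, a chain of type IV collagen, had 13870 and 9124 CPM at day 6 and 281 and 265 CPM at day 0 (5.40 ± 0.24, adjusted p = 3.77e-08). Its neighbour and partner chain Col4a2 had 7831 and 5279 CPM at day 6 and 156 and 148 CPM at day 0 (5.43 ± 0.24). The laminin chains of the early embryo, Lama1, Lamb1 and Lamc1, changed by 3.90, 3.22 and 2.30. Lamc1 stood at 5510 and 4018 CPM at day 6 against 954 and 982 CPM at day 0. Enzymes and chaperones of collagen assembly rose too, Serpinh1 by 3.45, P4ha2 by 3.48 and Plod2 by 1.93. The laminin chain Lama5 (-0.36 ± 0.12, adjusted p = 0.0238) and Col18a1 (-0.84 ± 0.10) fell. The Lama5 call was lost without day 0 replicate 1 or 2 (adjusted p = 0.0986 and 0.0628), which left 1 gene that fell.

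**Figure D3:**
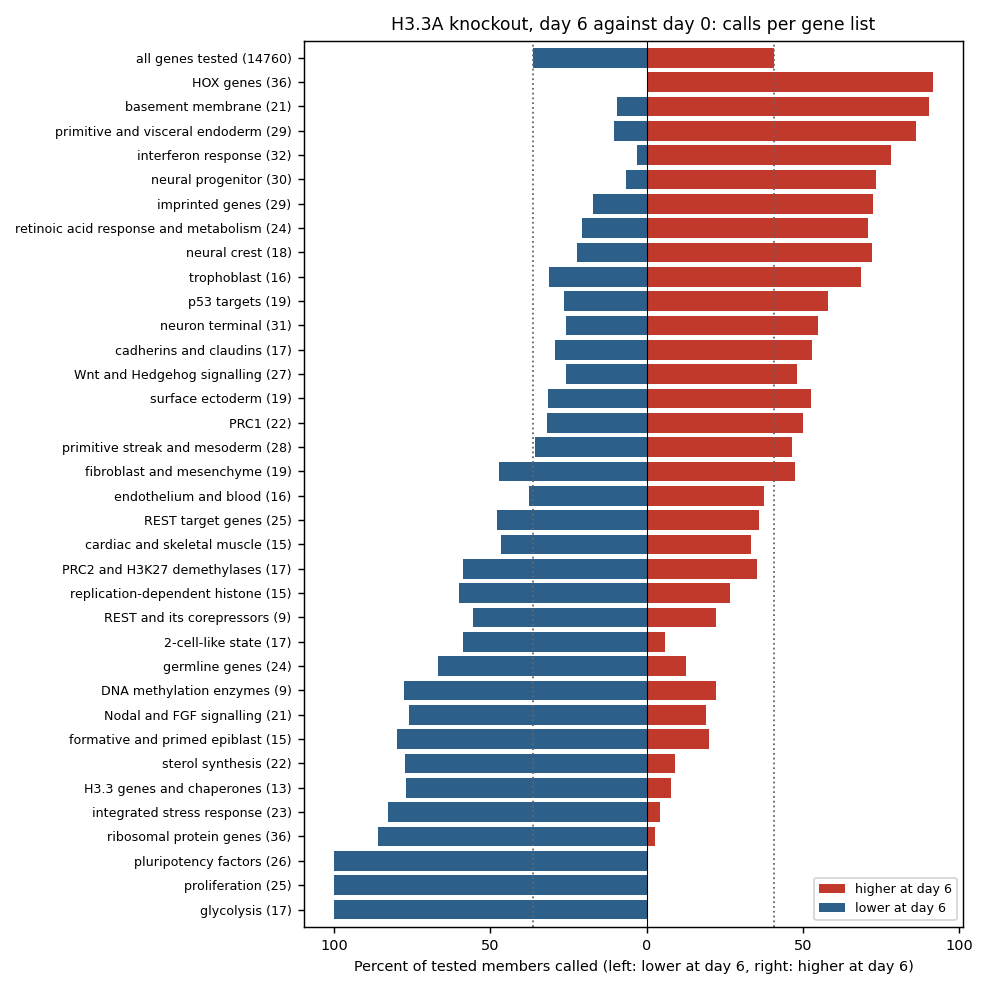
Percent of the tested genes of each list called at an adjusted p below 0.05 in the H3.3A knockout as higher or lower at day 6 than at day 0 (x axis, percent). The lists run from all lower (pluripotency, proliferation and glycolysis) to nearly all higher (HOX genes and basement membrane), against 40.8% higher and 36.4% lower over all 14760 genes tested.

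Neural genes gave a mixed picture in which the 2 day 6 libraries stood apart. Of 30 neural progenitor genes tested, 22 rose and 2 fell, with a median of 1.86. Without day 6 replicate 1 the counts were 26 and 2, and without day 6 replicate 2 they were 21 and 4. Pax6, a transcription factor of the neural tube and eye, had 24.98 and 58.0 CPM at day 6 and 5.93 and 7.02 CPM at day 0 (2.68 ± 0.36, adjusted p = 7.9e-05). The proneural factor Neurog2 had 6.18 and 23.6 CPM at day 6 and 0.258 and 0.00 CPM at day 0 (6.89 ± 1.05). In Sox9, with 34.2 and 38.9 CPM at day 6 (5.25 ± 0.19), and Irx3, with 21.5 and 20.9 CPM (4.51 ± 0.16), the day 6 libraries lay close together. Sox1, an early neural plate marker, had 14.1 and 30.6 CPM at day 6 and 15.9 and 17.4 CPM at day 0, so that the days overlapped (0.43 ± 0.30, adjusted p = 0.211). It was called as higher without day 6 replicate 1 (0.86, adjusted p = 0.000205) and was -0.24 without day 6 replicate 2. Olig2 fell (-1.72 ± 0.47), as did the intermediate filament gene Vim (-0.46 ± 0.09).

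Of 31 genes of mature neurons, 17 rose and 8 fell, with a median of 1.39, and 5 rather than 8 fell when either day 0 library was left out. The median was 1.68 without day 6 replicate 1 and 0.71 without day 6 replicate 2. Among the genes that rose were the transcription factor gene Lhx1 (6.95) and those of the motor neuron factors Isl1 (5.10) and Mnx1 (4.47). Lhx1 had 7.12 and 23.8 CPM at day 6 and 0.193 and 0.0553 CPM at day 0. Cytoskeletal genes went several ways. Nefm, the medium neurofilament, rose to 22.3 and 60.5 CPM at day 6, against 2.38 and 2.76 CPM at day 0 (4.00 ± 0.50). Nefh, the heavy neurofilament, had 5.39 and 5.37 CPM at day 6 and 132 and 123 CPM at day 0 (-4.56 ± 0.10). Stmn2 had 20.3 and 54.6 CPM at day 6 and 501 and 507 CPM at day 0 (-3.74 ± 0.39). Tubb3, the tubulin used to identify neurons, had 42.1 and 116 CPM at day 6 and 87.7 and 85.2 CPM at day 0 (-0.12 ± 0.43, adjusted p = 0.801). The call of Tubb3 turned on 1 library, at 0.41 without day 6 replicate 1 and at -1.04 (adjusted p = 0.00499) without day 6 replicate 2. The transcription factor REST keeps neuronal genes silent in other tissues. Of 25 of its targets 9 rose and 12 fell (median 0.04), where 40.8% rose and 36.4% fell over all genes. That median was -1.85 without day 6 replicate 2 and 0.38 without day 6 replicate 1, and it was -0.53 with only the knockout libraries in the fit. Rest itself had 43.1 and 40.8 CPM at day 6 and 248.8 and 281 CPM at day 0 (-2.66 ± 0.09, adjusted p = 8.06e-09). Of the 9 genes of REST and its corepressors 2 rose and 5 fell. Without day 0 replicate 1 it was 1 that rose, as the call of Foxj1 was lost (adjusted p = 0.0584).

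Lists of other lineages went both ways, several of them in shares near the 40.8% higher and 36.4% lower of all genes. In primitive streak and mesoderm 13 of 28 genes rose and 10 fell (median 0.76, but 1.24 without day 0 replicate 1 and 1.52 with only the knockout libraries in the fit). The T-box gene Eomes (-1.71) and the homeobox gene Mixl1 (-2.75) were among those that fell, and the transcription factor genes Meox1 (4.97), Foxc2 (4.88) and Foxf1 (5.99) among those that rose. Foxc2 had 29.4 and 49.98 CPM at day 6 and 1.48 and 1.22 CPM at day 0. Of 18 neural crest genes 13 rose and 4 fell (median 2.71). The endothelin receptor gene Ednrb had 19.2 and 28.4 CPM at day 6 and 1 count at day 0, a ratio of 813 (95% counting interval 146 to 32100), while Sox10, which defines the later crest, fell to 0.105 and 0.0444 CPM at day 6, against 0.644 and 1.38 CPM at day 0 (adjusted p = 0.00228).

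In muscle 5 of 15 genes rose and 7 fell (median -0.63, and -1.43 without day 6 replicate 1). Myl3, a myosin light chain, had 43.5 and 22.5 CPM at day 6 against 3 counts at day 0, a ratio of 360 (95% counting interval 123 to 1750). Ttn, the giant sarcomere protein, had 0.157 and 0.133 CPM at day 6 and 20.9 and 21.3 CPM at day 0 (-7.13 ± 0.35). Of 16 trophoblast genes 11 rose and 5 fell (median 2.52, or 2.10 with bounds), and 3 fell without day 0 replicate 2. Among those that rose were the simple-epithelium keratins Krt8, Krt18 and Krt19, which endoderm also expresses. Krt18 had 541 and 234 CPM at day 6 and 16.7 and 14.2 CPM at day 0 (4.65 ± 0.36). The 3 defining trophoblast markers summed to only 1.73 and 0.976 CPM at day 6.

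The fibroblast and mesenchyme list split evenly, with 9 of 19 genes higher and 9 lower (median -0.04). Fn1, a matrix protein, had 303 and 439 CPM at day 6 and 1596 and 1821 CPM at day 0 (-2.20 ± 0.16). Endothelium and blood split as well, with 6 of 16 higher and 6 lower. Of 19 surface ectoderm genes 10 rose and 6 fell (median 0.50, and 0.33 without day 6 replicate 1), and of 17 cadherins, claudins and junction genes 9 rose and 5 fell (median 0.63). Cdh2 (N-cadherin) had 27.02 and 53.6 CPM at day 6 and 9.79 and 12.1 CPM at day 0 (1.88 ± 0.30), and Cdh1 (E-cadherin) had 329 and 300 CPM at day 6 and 748 and 738 CPM at day 0 (-1.24 ± 0.09).

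In Wnt and Hedgehog signalling 13 of 27 genes rose and 7 fell (median 0.81), beside 40.8% and 36.4% of all genes. The ligands Wnt4 (48.6 and 58.1 CPM at day 6 against 0.773 and 1.16 CPM at day 0, 5.76 ± 0.22) and Shh (5.60 ± 0.36) rose. The transcriptional mediators Gli1 and Gli2 fell by 1.58 and by 2.87 on the log2 scale, and the Wnt effector Lef1 had 2.67 and 4.75 CPM at day 6 and 90.3 and 92.8 CPM at day 0 (-4.60 ± 0.19). Axin2, a common readout of Wnt activity, was not called (0.16 ± 0.16, adjusted p = 0.376).

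Interferon response genes, induced in most cells by viral nucleic acid or interferon, rose in 25 of 32 cases and fell in 1, with a median of 3.32. Without day 6 replicate 1, 2 genes fell. The element through which interferon acts, searched on both strands as GAAA, any 2 bases and GAAACT, was present in 89 of 32851 promoter windows (0.271%). Of the 33 tested genes with a match, 15 rose, 7 fell and 11 were not called, where 40.8% rose and 36.4% fell over all genes. The element was found in 6 of the 24 list members with a window, namely Ifit1, Ifit3, Oas1a, Bst2, Ddx58 and Cxcl10. The 150 bases before the starts of 2 of them are shown because both hold the element while the transcripts moved in opposite directions, with the matches in capitals (RefSeq, GRCm38.p6).

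Ifit1, chr19:34640739-34640888, plus strand: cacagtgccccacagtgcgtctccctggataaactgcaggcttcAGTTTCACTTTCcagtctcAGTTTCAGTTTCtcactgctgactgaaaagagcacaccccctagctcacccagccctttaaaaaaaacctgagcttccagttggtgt
Oas1a, chr5:120907526-120907675, minus strand: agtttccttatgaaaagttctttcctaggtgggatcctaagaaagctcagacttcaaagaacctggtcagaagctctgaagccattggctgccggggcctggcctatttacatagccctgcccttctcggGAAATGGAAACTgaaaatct

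Ifit1, an antiviral RNA-binding protein whose promoter holds 2 matches between 106 and 76 bases before the start, had 10.1 and 8.03 CPM at day 6 and 1 count in all at day 0. The level was 302 times as high (95% interval of the counts, 53.9 to 12000). Oas1a, an antiviral enzyme with its match 20 to 9 bases before the start, had 1.94 and 2.26 CPM at day 6 and 4.89 and 3.98 CPM at day 0 (-1.07 ± 0.22, adjusted p = 0.00124). It was the gene of the list that fell. Bst2 (0.09 ± 0.11, adjusted p = 0.476) and Ddx58 (-0.20 ± 0.09, adjusted p = 0.0644) also hold the letters and were not called. Usp18, a brake on interferon signalling, had 15.8 and 11.2 CPM at day 6 and no count at day 0 and was at least 149-fold higher. The sensor of viral RNA Ifih1 had 13 and 14.5 CPM at day 6 and 3 counts in all at day 0 (adjusted p = 7.72e-08). The transcription factors Irf7 (4.53) and Irf9 (1.72) and the antigen presentation gene B2m (3.41) rose. B2m had 234 and 134 CPM at day 6 and 16.5 and 18.0 CPM at day 0. Levels of many members stayed low, with Isg15 at 4.29 and 2.84 CPM at day 6.

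Imprinted genes, expressed from 1 parental copy, rose in 21 of 29 cases and fell in 5 (median 1.43). Igf2, a fetal growth factor, had 1454 and 2022 CPM at day 6 and 13.1 and 15.5 CPM at day 0 (6.92 ± 0.26, adjusted p = 1.71e-08). Its non-coding neighbour H19 had 117 and 56.6 CPM at day 6 and 2.58 and 3.21 CPM at day 0 (4.89 ± 0.36). Igf2 was higher in day 6 replicate 2 and H19 in day 6 replicate 1. Plagl1 (5.74), Dlk1 (5.01) and Peg3 (3.94) also rose, and Phlda2 (-3.63) and Zdbf2 (-2.41) fell.

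Of 17 genes of Polycomb repressive complex 2, which places the lysine 27 mark, and of the lysine 27 demethylases 6 rose and 10 fell. The median was -0.77, and -0.42 without day 6 replicate 1. For this and the next lists, the shares over all genes tested were 40.8% higher and 36.4% lower. Ezh2, the catalytic subunit, had 150 and 152 CPM at day 6 and 483 and 474 CPM at day 0 (-1.66 ± 0.07, adjusted p = 2.61e-08). The core partners Eed and Suz12 changed by -1.99 and -1.14 and the accessory subunit Jarid2 by -2.80. The alternative catalytic subunit Ezh1 rose by 0.54 and the accessory subunit Phf1 by 2.08. Polycomb complex 1, which reads and adds to the mark, split in shares near those of all genes, with 11 of 22 higher and 7 lower (median 0.35). Its chromodomain gene Cbx8 rose by 3.56 and Cbx7, the one of stem cells, was not called (-0.20 ± 0.12, adjusted p = 0.158). Of 13 H3.3 genes and chaperones 10 fell and 1, H3f3b, rose (median -0.75). Hira, which deposits H3.3 at active genes, changed by -1.36 ± 0.08, and Atrx, part of the complex for repeats and telomeres, by -1.07 ± 0.12. Of 9 genes of DNA methylation 7 fell and 2 rose (median -1.58), among them the oxidizing enzyme Tet1, with 31.8 and 40.1 CPM at day 6 and 1299 and 1461 CPM at day 0 (-5.26 ± 0.14), and Dnmt3b (-3.58 ± 0.16). Germline genes fell in 16 of 24 cases and rose in 3 (median -1.37), or in 1 without day 0 replicate 1, and the meiotic gene Sycp3 changed by -5.92. Of 17 genes of the rare state that resembles the embryo at its first cleavage 10 fell and 1 rose (median -1.45). Zscan4c of that list had 2.41 and 1.29 CPM at day 6 and 4.19 and 4.20 CPM at day 0. The Zscan4 and Usp17l genes have near-identical copies, so that their single values are uncertain.

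Genes of growth and metabolism fell as groups. All 25 proliferation genes fell, with a median of -1.67. Mki67, a marker of cycling cells, had 351 and 360 CPM at day 6 and 513 and 591 CPM at day 0 (-0.63 ± 0.09, adjusted p = 0.000127). The replication helicase gene Mcm5 had 191 and 168 CPM at day 6 and 860 and 840 CPM at day 0 (-2.24 ± 0.08), and Ccne1, the cyclin of S phase entry, changed by -3.19. All 17 glycolysis genes fell, with a median of -2.18. Ldha, which makes lactate, had 362 and 184 CPM at day 6 and 2049 and 1985 CPM at day 0 (-2.89 ± 0.25), and the phosphofructokinase gene Pfkp had 12.04 and 8.74 CPM at day 6 and 460 and 461 CPM at day 0 (-5.48 ± 0.14). The level of Gapdh, 5.08 and 6.25 CPM at day 6 and 13.5 and 13.4 CPM at day 0, is uncertain because the genome holds near-identical copies of it.

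Of 23 genes of the integrated stress response, which adapts cells to lack of amino acids, 19 fell and 1 rose (median -2.20); 3 rose without day 6 replicate 2. The amino acid transporter gene Slc7a5 had 41.5 and 45.6 CPM at day 6 and 590 and 608 CPM at day 0 (-3.78 ± 0.08), and the transcription factor Atf4 changed by -1.65. Of 22 sterol synthesis genes 17 fell and 2 rose (median -1.28). Insig1, 1 of these 2, rose by 0.69 (adjusted p = 0.032), a call lost without day 6 replicate 1 (0.07, adjusted p = 0.521) and without day 0 replicate 1 or 2 (adjusted p = 0.136 and 0.0938). Of 36 ribosomal protein genes 31 fell and 1 rose (median -0.90), and 2 rose without day 6 replicate 2. Many ribosomal protein genes have processed copies, so that their levels are uncertain in the same way. Of 15 replication-dependent histone genes 9 fell and 4 rose (median -1.35), in libraries made from polyadenylated RNA, a tail that most such transcripts lack. Targets of p53 went both ways, with 11 of 19 higher and 5 lower (median 0.42), beside 40.8% and 36.4% of all genes. The cell cycle inhibitor Cdkn1a had 370 and 179 CPM at day 6 and 57.3 and 54.5 CPM at day 0 (2.30 ± 0.28).

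Chromatin was mapped in wild-type cells only, so the knockout changes could be set beside the marks that wild-type stem cells carried at day 0. A gene was counted as marked where peaks of both duplicates overlapped the window of 1000 bases on each side of its RefSeq start. An H3.3K27me3 peak, from an antibody for H3.3 trimethylated at lysine 27, lay at 18.7% of the genes that rose in the knockout, 8.46% of those that fell and 12.1% of those not called. For H3K27me3 the shares were 32.4%, 12.5% and 20.2%. Peaks of H3.3 itself lay at 40.6% of the genes that rose, 63.9% of those that fell and 49.9% of those not called. Read the other way, 56.6% of the 1983 tested genes with an H3.3K27me3 peak rose and 22.9% fell. Of the 4939 genes without a peak of any of the 3 kinds, 43.7% rose and 31.9% fell. Only genes that passed the filter on low counts enter these shares. A gene silent at day 0 could pass only through its day 6 counts, and a gene silent at both days is left out. The filter alone can thus raise the share of rises among marked genes, and its part was not tested. Of all 14712 tested genes with a start, 13.5% had an H3.3K27me3 peak, 22.3% an H3K27me3 peak and 51.2% an H3.3 peak. All 36 HOX genes tested had both lysine 27 marks at their starts, and 21 had an H3.3 peak. Of the 26 pluripotency factors, 4 had an H3.3K27me3 peak, a share near that of all genes, and 21 an H3.3 peak. Neural progenitor genes had an H3.3K27me3 peak in 20 of 30 cases and endoderm genes in 11 of 29. Of the 25 proliferation genes none did, and 19 had an H3.3 peak. Among retinoic acid genes, Cyp26a1 carried all 3 kinds of peak and Rarb none. The peaks were weak, and with an enrichment of at least 5 required at most 0.0745% of the genes in a class had any of these peaks. With 1 duplicate in place of both, the share for H3.3K27me3 was 25.7% to 28.6% of genes that rose and 13.8% to 14% of genes that fell.

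**Figure D4:**
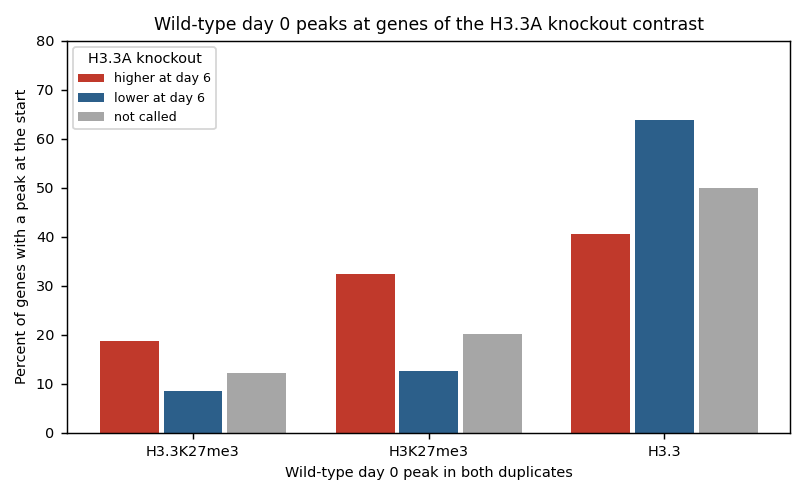
Percent of genes with a wild-type day 0 peak within 1000 bases of the start (y axis, percent) for H3.3K27me3, H3K27me3 and H3.3, in genes that rose, fell or were not called in the H3.3A knockout. Among the genes that passed the filter on low counts, the share with a lysine 27 mark is highest in genes that rose. That with an H3.3 peak is highest in genes that fell.

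The change in the knockout was close to that of wild-type cells of the same date. Across the 14760 genes the changes of the lines correlated with a Pearson r of 0.935, a value over genes, which are not independent replicates. Of the 5308 genes (36%) that rose in wild type, 4942 rose in the knockout, and of the 5141 (34.8%) that fell 4754 did, while 13 genes had opposite calls. A test of the difference between the changes called 6 genes (0.0407%) as shifted upward in the knockout and 6 (0.0407%) as shifted downward. At an unadjusted p below 0.05 there were 1780 genes, so the few adjusted calls do not show that the other genes changed alike in the 2 lines. Those counts depended on the fit. DESeq2 called 117 and 77 genes, and edgeR without the filter on low counts called 140 and 59. Leaving out day 6 replicate 1 of the knockout gave 272 and 168, and leaving out its replicate 2 gave 1674 and 1131, whereas leaving out either day 0 library of the knockout or either day 6 library of wild type gave 0 and 0 in edgeR, with 1135 to 1461 genes at an unadjusted p below 0.05. The 12 genes cannot be checked by the fits without a day 6 library of the knockout. Such a fit leaves 1 library in that group, so the wide spread between its duplicates no longer enters and more genes are called. The wild-type day 0 value is 1 library, so its spread is taken from the other groups.

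Of the 11 of these genes at 10 CPM or more in some group, Wnt6, a ligand of surface ectoderm and kidney development, had the largest shift, with a change of 2.44 in the knockout that was 2.96 ± 0.41 below that of wild type (-2.96, adjusted p = 0.0472). It had 5.87 and 6.12 CPM at day 6 in the knockout, against 25.5 and 26.2 CPM in wild type, and 0.902 and 1.27 CPM at day 0 in the knockout against 0.603 CPM in wild type. Plekha2, an adaptor that binds membrane lipids, had 27.9 and 33.1 CPM at day 6 in the knockout against 69.2 and 71.1 CPM in wild type, with day 0 at 64.6 and 61.4 CPM against 58.6 CPM (-1.31, adjusted p = 0.0319). Myh14, a non-muscle myosin, had 8.33 and 7.72 CPM at day 6 in the knockout against 18.4 and 19.7 CPM in wild type (-1.48, adjusted p = 0.0344). Tnfrsf19 (-1.28), Fignl2 (-1.21) and Smtnl2 (-0.92) were the others shifted downward.

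Among the genes shifted upward, Adam19, a membrane protease, kept 180 and 121 CPM at day 6 in the knockout against 49.2 and 54.2 CPM in wild type, with 132 and 138 CPM at day 0 against 173 CPM (1.90 ± 0.25, adjusted p = 0.0367). Its own change in the knockout was not called (0.15 ± 0.16, adjusted p = 0.393). Plac8 had 40.6 and 35.8 CPM at day 6 in the knockout against 15.7 and 13.8 CPM in wild type, with 13.98 and 11.2 CPM at day 0 against 15.5 CPM (1.67, adjusted p = 0.0472). For the semaphorin Sema6a (1.54) and Id2, an inhibitor of helix-loop-helix factors (1.15), day 0 was lower in the knockout as well. Id2 had 143 and 139 CPM at day 6 in the knockout against 110 and 115 CPM in wild type, and 10.6 and 11.8 CPM at day 0 against 19.8 CPM. Col6a5, a collagen below that level, was also shifted upward (3.22). Against wild-type libraries of 2019, Wnt6 (2.02), Sema6a (-1.28), Myh14 (0.02) and Smtnl2 (0.32) had a shift of the opposite sign. The opposite shifts of Wnt6 and Sema6a were called in edgeR (adjusted p = 0.00105 and 0.000266), and those of Myh14 and Smtnl2 were not. Adam19 (0.54), Col6a5 (0.86) and Fignl2 (-0.02) kept their sign but were not called. Those 2019 libraries had 34.3% to 43.3% of reads on no annotated gene.

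**Figure D5:**
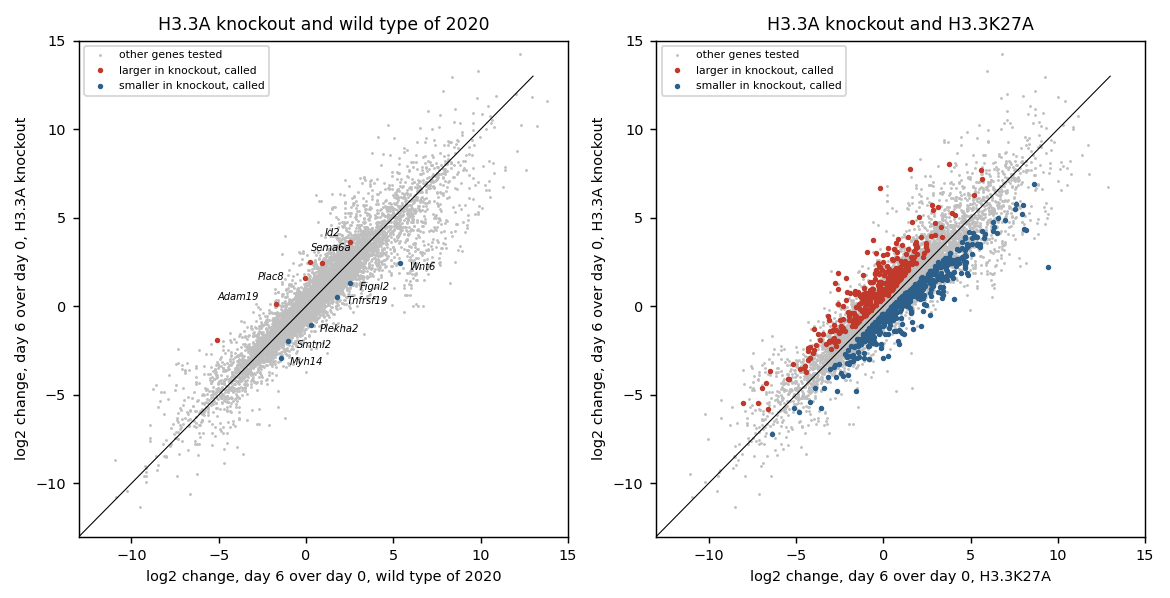
Log2 change from day 0 to day 6 of every tested gene in the H3.3A knockout (y axis) against that in wild type of 2020 (x axis, left) and in H3.3K27A (x axis, right), with genes whose change differed at an adjusted p below 0.05 in colour and the diagonal drawn. Points lie along the diagonal in both panels, with 12 coloured genes on the left and 796 on the right.

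Against the H3.3K27A line more genes differed. The Pearson r across genes was 0.924, and 5147 of the 5827 genes (39.5%) that rose and 4877 of the 5496 (37.2%) that fell in H3.3K27A did so in the knockout, with 70 opposite calls. The change was shifted upward in the knockout for 319 genes (2.16%) and downward for 477 (3.23%). Leaving out any 1 of the 8 libraries moved the counts. Without a day 6 library of the knockout they were 883 and 1170 (replicate 1) and 1975 and 1922 (replicate 2), and without any 1 of the other 6 libraries they were 45 to 117 and 125 to 182. The main calls cannot be checked by the fits without a day 6 library of the knockout, which no longer hold the spread between its duplicates. Whether the knockout differed more from H3.3K27A than from wild type was not tested, and the wild-type test had 1 library fewer.

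Of 21 basement membrane genes 9 were shifted upward and 2 downward, against 2.16% and 3.23% over all genes. Without 1 of the day 6 libraries of the knockout, 13 were shifted upward in either case and 3 or 5 downward. With 1 of the other 6 libraries left out it was 2 upward, or 7 without day 6 replicate 2 of H3.3K27A, and 1 downward. Nid1, a linker of laminin and collagen networks, had a shift of 2.52 (adjusted p = 0.000971), Lamc1 of 2.08 (adjusted p = 0.00207), Lamb1 of 1.77 and Lama1 of 1.75, while Lama5 (-0.82) and Col18a1 (-1.23) were shifted downward. Day 6 replicate 1 of the knockout had the higher level of the pair for Nid1, Lamc1, Lamb1 and Lama1. Endoderm genes divided, with 3 shifted upward and 7 downward of 29. Thbd (2.43) and Sparc (1.77) were upward, and Cited1 (-2.05) and Sox17 (-1.81) downward. The downward shift of Sox17 came with higher levels in the knockout at both days. Sox17 had 126 and 87.4 CPM at day 6 in the knockout against 60 and 58.5 CPM in H3.3K27A. At day 0 it had 4.7 and 4.64 CPM against 0.537 and 0.976 CPM. All 5 primitive endoderm markers summed above were higher in both knockout libraries than in both H3.3K27A libraries at each day. The same held against the wild-type libraries of 2020, with 1 library at day 0, so it was not particular to the comparison with H3.3K27A. In Wnt and Hedgehog signalling 7 of 27 were shifted downward and none upward, and in imprinted genes 7 of 29 downward and 1 upward. Igf2 (-1.71, adjusted p = 0.02), Dlk1 (-1.54) and Peg3 (-1.36) were among these. Of the 36 HOX genes 2 were shifted upward, Hoxa3 (1.505) among them, and none downward. With 1 of the 8 libraries left out, downward calls numbered 2 to 15 in endoderm, 1 to 18 in Wnt and Hedgehog signalling, 4 to 15 in imprinted genes and 0 to 2 in HOX genes, and upward calls in HOX genes 0 to 6. The highest of these numbers came from the fits without a day 6 library of the knockout. Of the 14 genes with a shift given here, Nid1, Lamc1, Col18a1, Thbd and Peg3 were called in all 8 of these fits, and every shift kept its sign.

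Among genes shifted upward, Ctgf, a secreted matricellular protein, had 524 and 181 CPM at day 6 in the knockout against 26.0 and 30.2 CPM in H3.3K27A, with day 0 at 183 and 172 CPM against 161 and 174 CPM (3.57 ± 0.59, adjusted p = 0.0108). Its own rise in the knockout (0.99, adjusted p = 0.0459) was lost without day 6 replicate 1 (0.01, adjusted p = 0.951), without day 0 replicate 1 or 2 (adjusted p = 0.133 and 0.164), and in DESeq2 (adjusted p = 0.083). Ankrd1, an ankyrin repeat protein of stretched muscle, had 39.5 and 11.9 CPM at day 6 in the knockout against 3.07 and 3.63 CPM in H3.3K27A (2.90, adjusted p = 0.0425). Fst, which binds activin, had 416 and 176 CPM at day 6 in the knockout against 31.9 and 40.3 CPM in H3.3K27A, with day 0 at 9.08 and 8.62 CPM against 7.52 and 10.3 CPM (3.04, adjusted p = 0.0168). Tfpi, an inhibitor of clotting, had 123 and 73.3 CPM at day 6 in the knockout against 13.2 and 16.9 CPM in H3.3K27A (2.93). In each of these genes both day 6 libraries of the knockout were above both of H3.3K27A, and replicate 1 was the higher of the pair. Prss35 (3.96), Drp2 (3.10), Dnaaf1 (2.93) and Lrrn2 (2.84) completed the group.

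Among genes shifted downward, Duox2, an enzyme that makes hydrogen peroxide, had 3.88 and 4.66 CPM at day 6 in the knockout against 33.2 and 33.7 CPM in H3.3K27A (-3.85 ± 0.61, adjusted p = 0.00917). At day 0 it had 0.193 and 0.221 CPM in the knockout against 0.134 and 0.0813 CPM in H3.3K27A, so that the size of the shift rests on few counts. Upk3b, a urothelial and mesothelial membrane protein, had 6.65 and 4.79 CPM at day 6 in the knockout against 34.4 and 30.1 CPM in H3.3K27A (-2.94). Igf1 had 20.9 and 15.5 CPM at day 6 in the knockout against 50.5 and 44.8 CPM in H3.3K27A (-2.74). These day 6 levels make up only part of the shift of Igf1, and the rest came from the day 0 levels. Wnt7b had 5.81 and 3.99 CPM at day 6 in the knockout against 19.4 and 18.7 CPM in H3.3K27A, and 2.64 and 4.64 CPM at day 0 against 1.14 and 1.14 CPM (-3.65). Klhl13 differed at day 0 instead, with 364 and 360 CPM in the knockout against 41.9 and 39.8 CPM in H3.3K27A, while day 6 was 71.9 and 93.0 CPM against 80.4 and 74.8 CPM (-3.06, adjusted p = 5.22e-05). Wild type had 327 CPM of Klhl13 at day 0. Prom2 (-2.81), Lrrn4 (-2.76) and Igf2os (-3.70) were the others. Igf2os is transcribed from the strand opposite Igf2, and as the counted strand is not given, the reads of the pair may not have been told apart. Of the 16 genes named by the size of their shift, Wnt7b, Klhl13, Upk3b, Prom2 and Lrrn4 were called in all 8 fits that left out 1 library, and the others in 2 to 7 of them.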

How the data were processed

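Libraries came from polyadenylated RNA and a directional kit, per the labels' protocols. The authors deposited whole-number read counts per gene symbol, made with STAR 2.5.2a and HTSeq on mm10, per the submitters' processing notes; which strand was counted is not given in the sources used here. Reads on no gene were left out of library sizes. Genes were tested with edgeR 4.0.16 (R 4.3.3), with TMM scaling, filterByExpr and the quasi-likelihood F test, in 1 fit of the 11 libraries of 2020 by line and day; 14760 of 24465 symbols passed the filter, and calls are Benjamini-Hochberg adjusted p below 0.05. The common biological coefficient of variation was 0.106. Differences between lines are contrasts of changes. A gene at 0 in both libraries of a day was set against a floor of 3 counts over the group, and gene lists contain a gene only if it passed the filter. Intervals and floors cover counting error only.

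The fit was tested on simulated data before use. That simulation gave each gene the same spread in all groups, so it did not cover the wider spread of the knockout day 6 pair. Peaks of wild-type day 0 chromatin were called by the authors, whose peak files give an enrichment fold (a ratio) per peak; MACS2 was used, per the file headers, without replicate pooling, and lists held 12690 to 18975 filtered peaks per library. Of the tested genes 14712 had a RefSeq start (14196 by symbol, 516 by synonym). Alternatives were DESeq2 1.42.0, its size factors, no filter, fewer groups, a replicate block, wild type of 2019 and leaving out each library; for the list shifts against H3.3K27A and the peak shares, leaving out libraries was added after seeing the data. Named genes were the 12 largest changes in each direction among genes at 10 CPM or more in both libraries of the higher day, the 8 largest shifts in each direction between lines by a like rule, up to 3 per direction and list at a mean of 5 CPM or more, a fixed set of well-known genes, and any list member described; Col6a5 was named after its values were seen. The knockout libraries, gene lists and tests were chosen with earlier results of these data known. Some genes are counted but not reported here by name.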

Additional observations from a re-analysis of the deposited data

Results flagged for a closer look

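Genes whose change from day 0 to day 6 in the H3.3A knockout differed from that in another line, by a test of the difference itself (edgeR quasi-likelihood, Benjamini-Hochberg adjusted p below 0.05), are given here as log2 differences of the changes. Against wild type of 2020, with 1 library at day 0, the change was shifted upward in the knockout for Col6a5 (3.22), Adam19 (1.90), Plac8 (1.67), Sema6a (1.54) and Id2 (1.15). It was shifted downward for Wnt6 (-2.96), Myh14 (-1.48), Plekha2 (-1.31), Tnfrsf19 (-1.28), Fignl2 (-1.21) and Smtnl2 (-0.92).

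Against H3.3K27A the 16 named genes, the 8 with the largest shift in each direction, were Prss35 (3.96), Ctgf (3.57), Drp2 (3.10), Fst (3.04), Tfpi (2.93), Dnaaf1 (2.93), Ankrd1 (2.90) and Lrrn2 (2.84) upward in the knockout. Duox2 (-3.85), Igf2os (-3.70), Wnt7b (-3.65), Klhl13 (-3.06), Upk3b (-2.94), Prom2 (-2.81), Lrrn4 (-2.76) and Igf1 (-2.74) were shifted downward. For all 8 upward genes the day 6 level in the knockout was higher in replicate 1, the library with the lower levels of mature neuron genes, than in replicate 2. The part of this difference between duplicates in the shifts was not tested. No group held the 4 samples that a check for a single distant sample needs.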

How the results depend on the processing

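The counts of genes that rose or fell in the knockout moved by less than 1.5 times, except that requiring a log2 change of 1 left 3078 that fell. With only the knockout libraries in the fit, 5087 rose and 4627 fell. With 1 knockout library left out, 5335 to 6132 rose and 4920 to 5556 fell, and the replicate block gave 5865 and 5255. Shared replicate numbers did not pair the samples (correlation of deviations 0.04), so the block is only an alternative. It gave 0 and 0 genes against wild type (edgeR, 1470 at an unadjusted p below 0.05) and 166 and 285 against H3.3K27A. Genes shifted upward and downward against wild type numbered 117 and 77 in DESeq2, 140 and 59 without the filter, 0 and 0 with only those groups in the fit (1089 at an unadjusted p below 0.05), and 2485 and 3146 against wild type of 2019, where 3 and 2 of the 6 and 6 were shared. Leaving out 1 library gave 0 to 1674 and 0 to 1131. Against H3.3K27A they numbered 533 upward without the filter, 165 and 265 with only those groups, and 45 to 1975 and 125 to 1922 when 1 library was left out.

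With 1 knockout library left out, signs turned for Adam19 (-0.19 to 0.42), Ankrd1 (-0.32 to 1.43), Tubb3 (-1.04 to 0.41) and Sox1 (-0.24 to 0.86), with the extremes in the fits without day 6 replicate 1 or 2, and for H3f3a (-0.067 to 0.059), which also gave -0.011 with DESeq2 size factors and -0.0054 in DESeq2. Against wild type of 2019 signs turned for Myh14 (0.024), Sema6a (-1.28), Smtnl2 (0.32) and Wnt6 (2.02). The causes were not tested.

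Peak shares at genes that rose, fell or were not called moved with the peak rules. With an enrichment of at least 5 they were 0.0334%, 0.0745% and 0% for H3.3K27me3, 0.0167%, 0.0186% and 0.0298% for H3K27me3, and 0.0167%, 0.0373% and 0% for H3.3. With 1 duplicate they were 25.7% to 28.6%, 13.8% to 14% and 19% to 19.7% for H3.3K27me3, 39% to 39.1%, 16.7% to 19% and 25.7% to 27.1% for H3K27me3, and 49.2% to 54.2%, 71% to 74.8% and 58.1% to 62.3% for H3.3. With genes called without 1 day 6 library of the knockout, an alternative chosen after seeing the data, they were at lowest 18%, and 8.16% to 9.2% and 11.9% to 12.5% for H3.3K27me3, 31% to 33.1%, 12.1% to 13.7% and 19.6% to 21% for H3K27me3, and 40.3% to 42%, 63.3% to 64.2% and 48% to 49.9% for H3.3. With 2500 bases on each side, 9.47% of genes that fell and 13% of those not called had H3.3K27me3, and 33.7% of genes that rose and 22% of those not called had H3K27me3.

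Of 70 counts over lists, 58 kept within 1.5 times under every setting. Of 35 medians over lists, 16 kept under every setting within the standard deviation of the list's median level between the 2 day 6 libraries. The median of Nodal and FGF signalling was -3.18 with only the knockout libraries in the fit, against -2.44. That of the retinoic acid list was 3.64 in DESeq2, against 4.47. None of the 12 shifts against wild type kept its call and sign under every setting. No rescaling moved the median change by more than 0.1. Genes under about 1 CPM rest on few counts.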
